A study of Mus musculus with 12 samples.

Results

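Gene desert regions are stretches of the mouse genome that carried an acetylation peak although no protein-coding gene lay nearby. Peaks of histone H3 acetylated at lysines 9 and 14 (H3K9/14ac) from 6 libraries were joined where they overlapped or touched, which gave 56643 union regions. A region was kept when it was under 8000 bp wide, lay on an autosome, had a peak in 2 or more libraries that included both genotypes, and was 100 kb or more from the nearest protein-coding gene span in GRCm38. The rule left 1642 regions, 2.90% of all union regions and 5.57% of the 29498 regions that met the same rule without the limit on distance. The peaks of these libraries chose the regions, so presence of a peak in both genotypes is not a finding, and regions seen in a single genotype are missing by choice.

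The cells were T helper 17 (Th17) cells, which are CD4+ T cells polarised to make IL-17 cytokines. Naive T cells of C57BL/6 mice were kept in culture under Th17 conditions for 3 days, then stimulated for 3 h with PMA and ionomycin while brefeldin A and monensin were present. In the knockout (KO) group Slc2a3, which encodes the glucose transporter GLUT3, was floxed on both alleles and recombined by Cre under the Cd4 promoter (Slc2a3-fl/fl Cd4-cre). The comparison group was wild type (WT), with 3 ChIP libraries per genotype, and the labels give neither the age of the mice nor whether libraries of a genotype came from separate mice. P-values over libraries therefore measure only the spread between them, which may be technical. Cd4-cre is known to act in developing T cells of the thymus, including those that become CD8 T cells. All 6 samples were barcoded inside their nuclei and pooled for 1 immunoprecipitation (RELACS), and input libraries were not used here.

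Acetylation of histone H3 at these lysines marks active promoters and enhancers. Enhancers are short stretches of DNA that bind transcription factors and raise transcription of a gene on the same chromosome, sometimes across very long distances. Genes that control cell identity are often flanked by long gene-poor intervals that hold many such elements, and long non-coding RNAs (lncRNAs) are often transcribed from them. Distance alone does not assign a region to a gene, and below a desert is named by its flanking protein-coding genes only to say where it is.

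Some gene desert regions hold the start of a lncRNA, and these are the places where sequence could be read, from the RefSeq promoter windows of GRCm38.p6. A window covers 250 bases before and 50 bases after a start, 300 bases in all. In total 67 such windows, of 57 lncRNA genes, fell in 53 of the 1642 regions. Shown are 6 windows: those of Gm26901, Lncpint, a p53-induced lncRNA, and Gm30214, whose regions were lower in KO; that of Dubr, whose region was not called; and those of A830019L24Rik and Morrbid, whose regions were higher in KO. Capitals mark matches to AP-1 (TGANTCA), ETS (CCGGAA), RUNX (TGTGGTT), ROR element (AGGTCA), STAT (TTCNNNGAA), NF-kB or CRE (TGACGTCA), searched on both strands.
Gm26901 promoter, chr1:7398047-7398346, minus strand: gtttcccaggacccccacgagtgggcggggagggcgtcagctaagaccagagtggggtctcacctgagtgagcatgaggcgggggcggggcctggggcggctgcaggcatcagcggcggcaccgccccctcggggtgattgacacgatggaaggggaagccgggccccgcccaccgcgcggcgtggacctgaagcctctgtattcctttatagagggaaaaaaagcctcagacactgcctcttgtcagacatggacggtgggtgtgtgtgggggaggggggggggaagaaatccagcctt
Lncpint promoter, chr6:31218425-31218724, minus strand: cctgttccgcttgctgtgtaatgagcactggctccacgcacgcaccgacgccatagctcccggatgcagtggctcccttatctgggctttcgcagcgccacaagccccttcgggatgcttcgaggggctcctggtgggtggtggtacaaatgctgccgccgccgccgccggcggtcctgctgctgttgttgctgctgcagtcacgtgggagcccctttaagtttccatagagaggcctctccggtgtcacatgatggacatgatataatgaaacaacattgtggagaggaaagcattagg
Gm30214 promoter, chr14:53039417-53039716, minus strand: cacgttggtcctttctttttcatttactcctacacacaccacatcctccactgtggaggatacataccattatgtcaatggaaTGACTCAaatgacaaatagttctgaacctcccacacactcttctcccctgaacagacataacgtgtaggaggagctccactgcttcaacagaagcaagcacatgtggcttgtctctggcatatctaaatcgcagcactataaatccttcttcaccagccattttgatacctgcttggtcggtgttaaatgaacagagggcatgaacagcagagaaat
Dubr promoter, chr16:50732724-50733023, minus strand: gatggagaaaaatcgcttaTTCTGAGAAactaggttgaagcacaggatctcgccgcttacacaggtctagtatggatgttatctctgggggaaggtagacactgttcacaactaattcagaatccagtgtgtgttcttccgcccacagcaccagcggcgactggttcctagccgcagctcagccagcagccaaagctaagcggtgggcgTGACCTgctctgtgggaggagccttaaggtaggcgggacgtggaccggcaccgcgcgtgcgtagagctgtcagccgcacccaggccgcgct
A830019L24Rik promoter, chr3:143242805-143243104, plus strand: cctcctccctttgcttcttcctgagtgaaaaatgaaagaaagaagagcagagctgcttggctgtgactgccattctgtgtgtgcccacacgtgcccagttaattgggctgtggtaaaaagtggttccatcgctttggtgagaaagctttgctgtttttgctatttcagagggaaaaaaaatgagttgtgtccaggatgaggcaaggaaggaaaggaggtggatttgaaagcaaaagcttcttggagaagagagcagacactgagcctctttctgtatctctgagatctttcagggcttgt
Morrbid promoter, chr2:128429302-128429601, minus strand: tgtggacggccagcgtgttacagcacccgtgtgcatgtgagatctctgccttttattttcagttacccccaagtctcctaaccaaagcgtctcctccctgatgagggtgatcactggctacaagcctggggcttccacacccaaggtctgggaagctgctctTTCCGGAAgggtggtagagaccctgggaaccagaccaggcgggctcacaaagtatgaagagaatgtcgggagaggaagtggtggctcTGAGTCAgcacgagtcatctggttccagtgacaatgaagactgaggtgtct
Capitals mark an AP-1 match in the windows of Gm30214 and Morrbid, and Dubr holds a STAT match and, on the other strand, a ROR element match. In Morrbid the ETS matches of both strands overlap. Gm26901, Lncpint and A830019L24Rik hold no match to these letters in this window. The AP-1 letters occurred in 14 of 67 windows (20.9%), against 9.31% of the 11588 lncRNA promoter windows in the table and 7.81% of all 32851 promoter windows. Counted by the first window of each gene, they were in 13 of 57 (22.8%), against 9.49% of 9533 lncRNA genes. The ETS letters were in 10.4% of the 67 windows, against 7.94% of lncRNA windows, and the ROR element letters in 19.4%, against 19.1%. The NF-kB and CRE letters were in 0 of 67 windows, against 1.67% and 0.975% of lncRNA windows. The E-box letters (CANNTG, not capitalised) were in 79.1%, against 78.4%. These shares are descriptions, and windows of a gene with several starts share bases. The windows of Gm33323 and Gm33398 also overlap and share an AP-1 match. The comparison windows were taken with or without an acetylation peak, while the 67 lie in regions chosen for one.

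Acetylation at the regions that hold these windows covered a wide range. Height here is the pile of fragments at the tallest point of a library's highest peak in a region, divided by that library's mean coverage, both solved from the fold and p that the authors gave each peak. At Gm30214 the height was 17.8, 17.9 and 16.2 in KO libraries, against 35.1, 42.8 and 46.5 in WT libraries, without overlap. The authors' deposited table gave this region a log2 fold change of -2.03 (FDR 4.91e-14). It is among the regions counted at the T cell receptor alpha locus below, where reads can be shared between similar segments. At the region of Lncpint the height was 69.2, 78.2 and 74.0 in KO libraries, against 83.0, 101 and 103 in WT libraries. That region, which also holds the promoter of the lncRNA 2210408F21Rik, had -1.11 (FDR 1.43e-05) per the authors' deposited table. At the region of Gm26901, the tallest of the 6 regions, the height was 93.5, 89.5 and 99.0 in KO libraries, against 114, 119 and 130.3 in WT libraries. It had -1.41 (FDR 1.61e-07) per the authors' deposited table. Heights are of a whole region, so the tallest point need not lie in the printed window. At Dubr the height was 101, 106 and 92.7 in KO libraries, against 81.0, 78.7 and 81.1 in WT libraries. The authors' deposited table gave Dubr -0.45 (FDR 0.558), so its heights per coverage and its tabled fold change had opposite signs and it was not called. A830019L24Rik had heights of 50.3, 46.3 and 56.2 in KO libraries, against a peak in WT replicate 3 alone, of height 5.39.

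The libraries differed in depth and in 1 other respect. Mean coverage was 1.85 to 2.29 fragments in KO libraries and 2.97 to 3.99 in WT libraries, without overlap, so depth and genotype cannot be told apart. KO replicate 3 had 11 peaks on chromosome Y, against 1 to 2 in each of the other 5 libraries. Peaks over Slc2a3 covered 3822 to 6128 bp in KO libraries and 11794 to 12287 bp in WT libraries. Of 12 T cell and Th17 marker genes, 10 to 11 had a peak within 2 kb of an end in KO libraries and 11 in WT libraries. Rora had none in any library, and Il17f had one in every WT library but in KO replicate 2 alone among KO libraries. Peaks farther inside a gene were not counted, so a marker without a peak here may still carry acetylation. Of 7 myeloid markers 1 had a peak in KO libraries and 1 to 2 in WT libraries, with none at Lyz2, Itgam, Adgre1, Cebpa or Mpo. Cd14 had a peak in every library, and Csf1r in WT replicate 3 alone. Of 6 markers of CD8 T and NK cells 2, Cd8b1 and Eomes, had a peak in every library, with none at Cd8a, Ncr1, Klrb1c or Gzma. Of 5 erythroid markers 0 to 2 had a peak in KO libraries and 2 in WT libraries, with none at Gata1, Hba-a1 or Hbb-bs. Klf1 had a peak in every library except KO replicate 3, and Epor in every WT library and KO replicate 2. The part of other cells in the results was not tested. In a bulk assay, fewer cells with the mark and less mark per cell cannot be told apart.

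Gene desert regions were small, as the width limit required, and many lay close together. Their median width was 1355 bp, the narrowest being 268 bp and the widest 7976 bp, and together they covered 3201691 bp. Regions of the same rule 2 to 100 kb from a gene had a similar median width, 1341 bp, as did those inside gene spans, 1404.5 bp. The median distance to a protein-coding gene was 179336 bp, 705 regions were 200 kb or more away and 122 were 500 kb or more away. They lay in 310 intervals between neighbouring protein-coding genes, called deserts here. A single region was found in 92 deserts, while 33 deserts with 10 or more regions held 766 regions (46.7%). The median gap between neighbouring regions of a desert was 2826 bp. Chromosomes 10, 13, 12 and 15 held 226, 193, 175 and 121 regions, against 15 on chromosome 19 and 23 on chromosome 18. These counts were not set against chromosome length or the amount of gene-poor sequence, and the spacing of regions in other classes was not measured.

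The label gene desert holds for protein-coding genes but for few regions when every annotated gene is counted. A span of a non-coding gene, pseudogene or antigen receptor segment overlapped 556 regions (33.9%), and 163 (9.93%) lay 100 kb or more from any annotated gene. The distance limit itself cut through a continuum. Just inside it were regions between Gli3 and Inhba, between Tle3 and Rplp1 and between Klf7 and Creb1, at 100.1, 100.1 and 100.3 kb from a gene, with log2 fold changes of -1.07, -0.20 and 0.79 per the authors' deposited table. Just outside were regions between Ubl3 and Katnal1, Aldh8a1 and Sgk1, and Impg2 and Abi3bp, at 99.97, 99.91 and 99.84 kb, with -0.57, 0.63 and 0.63 per the authors' deposited table. The widest regions inside the width limit were 7976, 7975 and 7790 bp, with 0.47, -1.08 and -0.92 per the authors' deposited table. The narrowest regions left out for their width were 8024, 8024 and 8044 bp, with -1.79, -2.17 and 0.82 per the authors' deposited table.

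How many libraries shared a region varied. All 6 libraries had a peak in 706 regions (43.0%), and 166 regions had a peak in 1 KO and 1 WT library only. A peak was present in 1211, 1273 and 1212 of the regions in KO libraries, against 1408, 1293 and 1307 in WT libraries. All 3 KO libraries but fewer than 3 WT libraries had a peak in 160 regions, while all 3 WT libraries but fewer than 3 KO libraries had one in 333. Among autosomal union regions 100 kb or more from a gene, 938 had peaks in KO libraries only and 1529 in WT libraries only, and these were outside the rule. The same counts over regions of other classes were not taken. Over the whole genome, too, KO libraries had fewer peaks, 39264, 40386 and 40582, against 43507, 40997 and 42771 in WT libraries. Lower depth in KO libraries moves with all these counts, and its part in them was not tested. KO replicate 3 did not stand out by its count of regions, and 1520 regions met the rule without it.

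The authors' deposited table had a tested region over 1025 of the gene desert regions (62.4%, through 1021 distinct tested regions). In it, 397 regions (38.7%) were lower in KO and 150 (14.6%) were higher at an FDR under 0.05, while 478 were not called. Over all 40909 regions of the authors' deposited table, 46.3% were lower, 12.7% were higher and 59.0% were called in either direction. The median log2 fold change was -0.51 over gene desert regions and -0.62 over all regions per the authors' deposited table. Since a region needed a peak in both genotypes to be counted, these shares are set side by side as a description. The 617 regions with no tested region were narrower, with a median width of 774 bp against 2113 bp, and 49 of them had a peak in all 6 libraries.

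The balance of lower and higher regions depended on how libraries were scaled. Of called regions, 268 had log2 values of -1 or less and 89 of 1 or more per the authors' deposited table. Matching shares of all tested regions were not taken, so counts at this size compare scalings of gene desert regions and not classes of region. Equal mean coverage would correspond to a shift of 0.30 upward in each log2 value, as estimated in 709 regions whose summits lay near the table's best window. At that scale 153 of the called regions had -1 or less, 139 had 1 or more, and the median became -0.21, against -0.32 over all tested regions. Fold changes per the authors' deposited table are therefore best read against the median of that table. The sign was checked on the peaks: of 79 tested regions with a peak in 1 KO and all 3 WT libraries, 78 had a negative value per the authors' deposited table. Of 45 with a peak in all 3 KO libraries and 1 WT library, 43 had a positive value there.

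Set against other classes chosen by the same peak rule, gene desert regions had shares between those of gene bodies and of intergenic regions nearer to genes. Intergenic regions 2 to 100 kb from a gene were lower in 44.5% and higher in 12.4% of 4870 tested cases per the authors' deposited table, with a median of -0.60. Regions inside gene spans were lower in 36.2% and higher in 14.9%, with a median of -0.47 per the authors' deposited table. Regions within 2 kb of a gene end differed most, with 57.0% lower, 5.12% higher and a median of -0.74 per the authors' deposited table. The differences between classes were not tested. Within the gene desert regions the share lower in KO was 37.6% at 100 to 150 kb from a gene, 40.6% at 150 to 200 kb, 34.9% at 200 to 300 kb, 41.3% at 300 to 500 kb and 46.3% of 41 tested regions at 500 to 1000 kb per the authors' deposited table. The share higher in KO ran from 11.2% to 22.3% over these distances, and was highest at 150 to 200 kb. Beyond 1000 kb only 14 regions were tested.

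**Figure D1:**
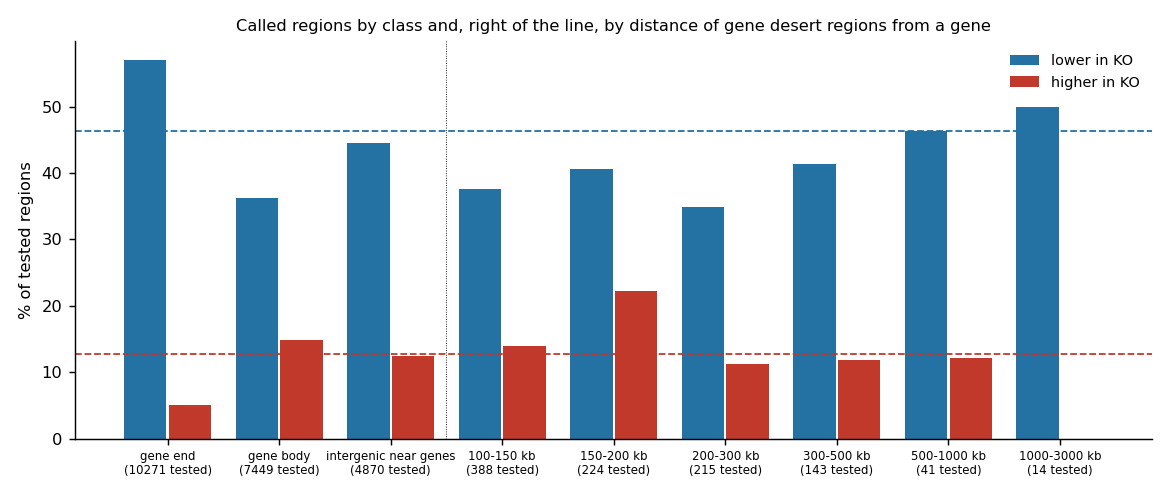
Bars give the percentage of tested regions called lower (blue) or higher (red) in KO at an FDR under 0.05 per the authors' deposited table, for the other classes (left of the dotted line) and for gene desert regions by distance from a protein-coding gene (right of it); dashed lines are the shares over all tested regions, 46.3% and 12.7%. Gene desert regions between 100 and 500 kb from a gene lie below the blue dashed line, and regions at gene ends lie above it.

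In each library, peaks far from genes could be counted without reference to the chosen regions. Peaks 100 kb or more from a protein-coding gene made up 6.36%, 6.30% and 6.22% of autosomal peaks in KO libraries, against 6.87%, 6.64% and 6.78% in WT libraries. Every KO library lay below every WT library, and the means were 6.29 ± 0.067% in KO and 6.77 ± 0.12% in WT (SD, n = 3 each). The difference of -0.47 percentage points had an exact two-sided permutation p of 0.1, the smallest that 3 against 3 libraries allow. With the same number of strongest peaks per library it was -0.29 (exact permutation p = 0.1), with single-read peaks -0.24 (p = 0.2), and with peaks taller than 8 times coverage, an alternative chosen after seeing the data, -0.21 (p = 0.3). Without KO replicate 3 it was -0.44 (exact permutation p = 0.1).

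Heights gave another view, in the 702 gene desert regions where a peak height was recovered in every library. The median height was 22.4, 22.3 and 21.9 times coverage in KO libraries, against 21.1, 21.0 and 20.9 in WT libraries. On the log2 scale the KO mean was 4.47 ± 0.019 and the WT mean 4.39 ± 0.0060 (SD, n = 3 each), a difference of 0.08 without overlap (exact two-sided permutation p = 0.1). These regions were chosen by a peak in every library, and every KO library was shallower than every WT library. Genotype, depth and that choice cannot be told apart in this difference. In intergenic regions near genes the same medians overlapped and differed by 0.01 (exact permutation p = 0.5). Gene desert regions were shorter than near-gene regions in every library, by 0.27, 0.28 and 0.34 on the log2 scale in KO libraries and by 0.35, 0.38 and 0.37 in WT libraries. This gap was smaller in KO by 0.07, without overlap (exact permutation p = 0.1), and by 0.03 with single-read peaks (exact permutation p = 0.4) or at 200 kb from a gene (exact permutation p = 0.2). The difference in height was 0.20 in regions where peaks covered 50% of the span, 0.04 at 200 kb from a gene and, in an alternative chosen after seeing the data, 0.24 without regions the authors called. Without KO replicate 3 it was 0.05 and the difference in the gap 0.06.

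**Figure D2:**
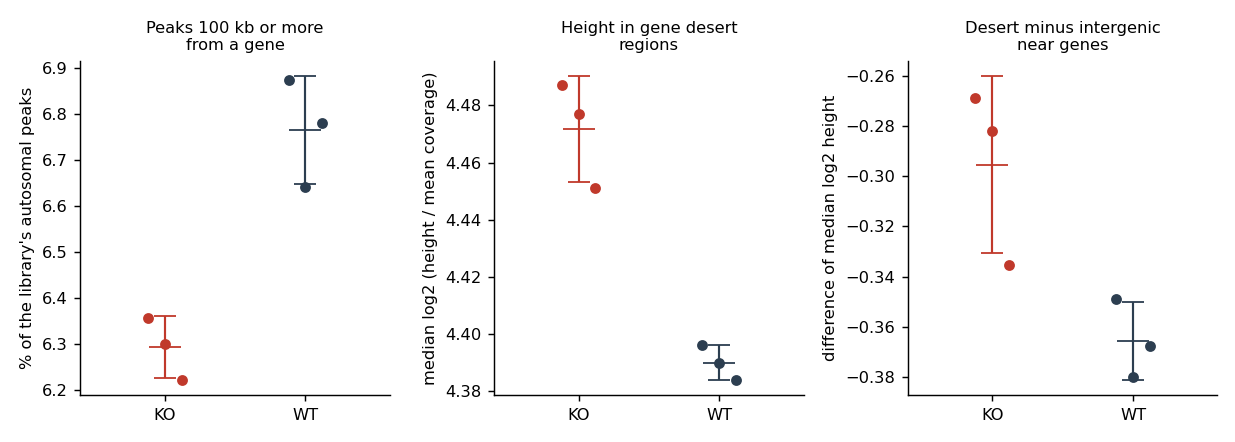
Points are the 3 KO and 3 WT libraries, with mean and SD as bars: the share of autosomal peaks 100 kb or more from a gene (left), the median log2 height over mean coverage in gene desert regions (middle) and that median minus the one of intergenic regions near genes (right). In each panel KO and WT libraries do not overlap, and the axes do not start at 0.

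All 3 KO heights were above all 3 WT heights in 221 of the 702 regions (31.5%), against 25.1% of the 18276 shared narrow regions with a height in every library. All 3 were below in 153 (21.8%), against 18.8%. These heights are per coverage, the scale on which fewer regions are lower in KO than per the authors' deposited table. The share above was 28.3% in intergenic regions near genes, 33.0% in gene bodies and 19.0% at gene ends, and the difference of gene desert regions from these was not tested.

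At the 5 regions of lowest fold change at least 1 KO library had no peak. The lowest of all, -3.27 (FDR 7.52e-17) per the authors' deposited table, was at chromosome 12, 16229209 to 16233020, between Trib2 and Lpin1 and over the lncRNAs Gm36372 and Gm48606. Its height was 9.19 and 6.11 in KO replicates 1 and 2, with no peak in KO replicate 3, against 24.1, 20.7 and 27.3 in WT libraries. Between Stt3b and Gadl1 on chromosome 9, 2 neighbouring regions had -2.93 (115610946 to 115614476) and -2.62 (115608344 to 115610702) per the authors' deposited table. In KO replicate 3 alone they had a peak, of height 10.9 and 8.85, against 53.9, 54.3 and 55.9 at the first and 17.1, 20.4 and 20.2 at the second in WT libraries. A region between Dock10 and Nyap2 (chromosome 1, 80873542 to 80876125) had -2.69, with a height of 8.11 in KO replicate 1 alone, against 16.3, 15.2 and 22.2 in WT libraries. A region between Ccdc54 and Cblb (chromosome 16, 51767961 to 51769441), 261.8 kb from Cblb, an E3 ligase that restrains T cell activation, had -2.58 per the authors' deposited table. Its height was 7.03 in KO replicate 1 alone, against 32.3, 26.1 and 27.6 in WT libraries. In each of these 5 regions every WT library had a peak, and 1 or 2 KO libraries did. They were chosen by fold change in the same libraries, so this separation is no separate support.

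At the 5 regions of highest fold change every KO library had a peak, and 1 to 3 WT libraries did. A region between Got2 and Cdh8 (chromosome 8, 98849541 to 98854151) had 3.11 (FDR 1.40e-23) per the authors' deposited table. Its height was 29.7, 24.5 and 24.5 in KO libraries, against 4.51 and 4.04 in WT replicates 1 and 3 and no peak in WT replicate 2. A region between Mbnl1 and P2ry1 (chromosome 3, 60788423 to 60792478) had 2.98 per the authors' deposited table, with 89.7, 78.6 and 76.0 in KO libraries, against 23.3 and 19.5 in WT replicates 2 and 3. WT replicate 1 had a peak there whose height was not recovered. The region that holds the A830019L24Rik promoter, 200.5 kb from Lmo4, a LIM-domain transcriptional cofactor, had 2.71 per the authors' deposited table. A region between Nucb2 and Xylt1 (chromosome 7, 117087540 to 117094523) had 2.51 per the authors' deposited table, with heights of 50.3, 56.3 and 59.4 in KO libraries, against 10.0, 7.47 and 6.73 in WT libraries. A region between Insc and Sox6 (chromosome 7, 115288067 to 115289148) had 2.38, with 24.3, 24.5 and 15.1 in KO libraries, against 5.51 in WT replicate 1 alone. Recovered KO and WT heights did not overlap in these 5 regions, which were chosen by fold change in the same libraries, so this is no separate support.

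**Figure D3:**
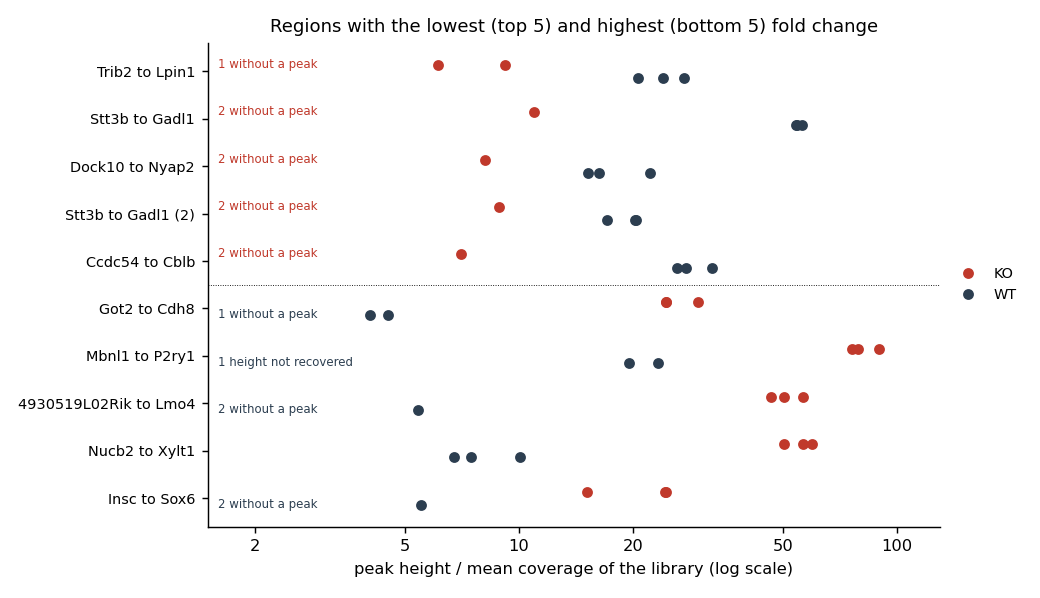
Points are peak heights, as multiples of the library's mean coverage on a log axis, in the 5 gene desert regions with the lowest and the 5 with the highest log2 fold change of the authors' deposited table, named by their flanking genes; KO is red and drawn above WT, and libraries without a peak or without a recovered height are counted at the left. KO heights lie below all WT heights in the upper 5 rows and above them in the lower 5, which were chosen by fold change in the same libraries.

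By the authors' fold enrichment over background, averaged over 6 libraries, the most enriched region was at chromosome 4, 10355202 to 10360200, between Gdf6 and 2610301B20Rik, with a mean fold of 26.4. Its fold was 26.4, 34.8 and 29.9 in KO libraries, against 25.9, 15.4 and 26.0 in WT libraries. Its height of 189, 194 and 209 in KO libraries, against 133, 120.3 and 143 in WT libraries, did not overlap, while its log2 fold change of 0.68 (FDR 0.0522) per the authors' deposited table was not called. The next were between Akr1d1 and Trim24 (mean fold 20.9), Cntnap5b and Cdh20 (18.6), Grm3 and Gm5861 (18.4) and 4933412E24Rik and Lratd2 (18.1), with 0.39, -0.73, -0.65 and 0.64 per the authors' deposited table. Of these 5 regions, the one between Cntnap5b and Cdh20 was called there (FDR 0.0310).

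That region was also the farthest from any protein-coding gene, at 1411 kb. Its height was 54.6, 43.2 and 55.2 in KO libraries, against 49.6, 42.5 and 56.9 in WT libraries, so that the groups overlapped although the tabled value was lower in KO. The next farthest were 2 regions at 1261 and 1258 kb, between Zeb2, a zinc-finger repressor, and Acvr2a. They had no tested region, and their heights of 9.17 to 12 in KO libraries and 7.02 to 9.03 in WT libraries were low.

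Neighbouring called regions mostly had the same direction. Of 335 neighbouring called pairs within a desert, 287 (85.7%) had the same direction per the authors' deposited table. The share lower among called gene desert regions was 72.6%, and neighbours can share a tested region, so the pairs are not independent. Deserts differed: among 27 with 8 or more tested regions, 9 had only lower calls, 3 only higher calls and 15 had both, and their medians ran from -1.48 to 1.14 per the authors' deposited table.

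**Figure D4:**
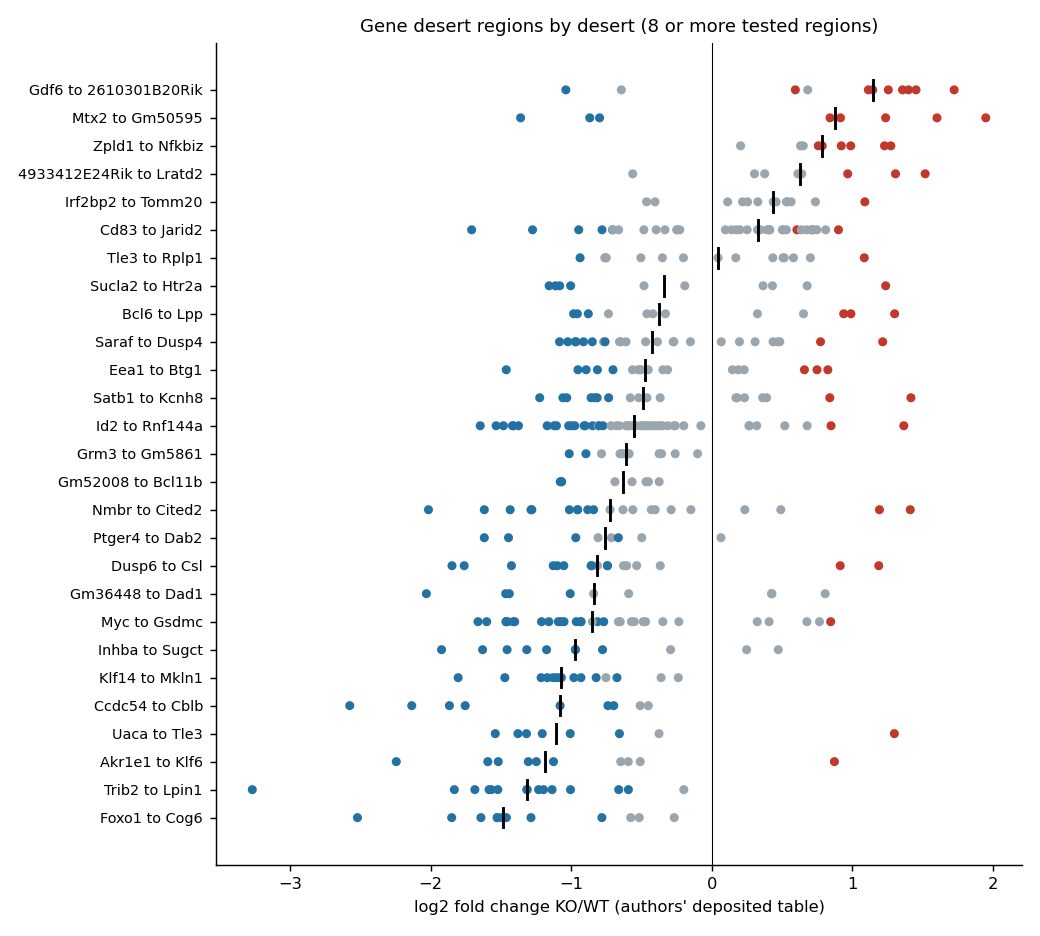
Points are log2 fold changes, KO over WT, of tested gene desert regions from the authors' deposited table, in rows for the 27 deserts with 8 or more of them; blue is lower and red higher in KO at an FDR under 0.05, grey is not called, and the black bar is the median. The medians run from -1.48 (Foxo1 to Cog6) to 1.14 (Gdf6 to 2610301B20Rik).

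The desert with the most regions lay between Id2, an inhibitor of E-protein transcription factors, and Rnf144a on chromosome 12. Its 1211 kb held 89 regions, of which 51 were tested, 17 were lower and 2 were higher in KO per the authors' deposited table, with a median of -0.56. The share lower was below the 46.3% over all regions of that table, of which 12.7% were higher. The lncRNA Gm36723 overlapped 25 of them. The lower region of smallest FDR, 822.1 kb from Id2, had -1.65 per the authors' deposited table, with no peak in KO replicate 1 and heights of 12.2 and 11.5 in the other KO libraries, against 22.8, 23.5 and 24.6 in WT libraries. Between Cd83, an activation marker, and Jarid2, a Polycomb cofactor, 63 regions lay on chromosome 13. Of 37 tested, 5 were lower and 2 higher, and the median was 0.32 per the authors' deposited table, above that of all regions. Its region of smallest FDR had -1.71 per the authors' deposited table, with heights of 18.9, 21.0 and 20.3 in KO libraries, against 28.3, 34.5 and 30.6 in WT libraries.

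Between Nmbr and Cited2 on chromosome 10 lay 59 regions in 2952 kb. Of 21 tested, 10 were lower and 2 higher in KO per the authors' deposited table, against 46.3% and 12.7% of all its regions. The region of smallest FDR, 1106 kb from Cited2, a transcriptional coregulator, had -2.02 per the authors' deposited table, with heights of 8.65 and 8.33 in KO replicates 1 and 3, no peak in KO replicate 2, against 14.5, 13.5 and 12.5 in WT libraries. Between Saraf and Dusp4, a MAP kinase phosphatase, 7 of 24 tested regions were lower, a smaller share than over all regions, and 2 higher per the authors' deposited table. The region of smallest FDR there was higher, with 1.22 per the authors' deposited table and heights of 68.1, 76.9 and 79.2 in KO libraries, against 34.8, 37.0 and 33.3 in WT libraries.

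Myc, the growth-promoting transcription factor, had gene desert regions on both sides. On the side towards Gsdmc, 55 regions lay in 1786 kb, and 17 of 31 tested were lower and 1 higher per the authors' deposited table, with a median of -0.85. Over all its regions 46.3% were lower and 12.7% higher. The lncRNA Pvt1, known as a neighbour of Myc that holds Myc enhancers, overlapped 22 of these regions, and 7 of its 12 tested regions were lower and 0 higher per the authors' deposited table. The region of smallest FDR lay 759.3 kb from Myc, with -1.46 per the authors' deposited table and heights of 58.9, 55.0 and 46.4 in KO libraries, against 80.2, 74.9 and 78.8 in WT libraries. On the side towards A1bg all 6 regions were tested and all 6 were lower, with a median of -2.12 per the authors' deposited table. The lowest of these, 536.6 kb from Myc, had heights of 18.4, 16.6 and 18.8 in KO libraries, against 38.1, 61.2 and 54.5 in WT libraries, and -2.57 (FDR 5.02e-23) per the authors' deposited table. No KO library reached the lowest WT library in that region, which was picked by its tabled value in the same libraries.

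**Figure D5:**
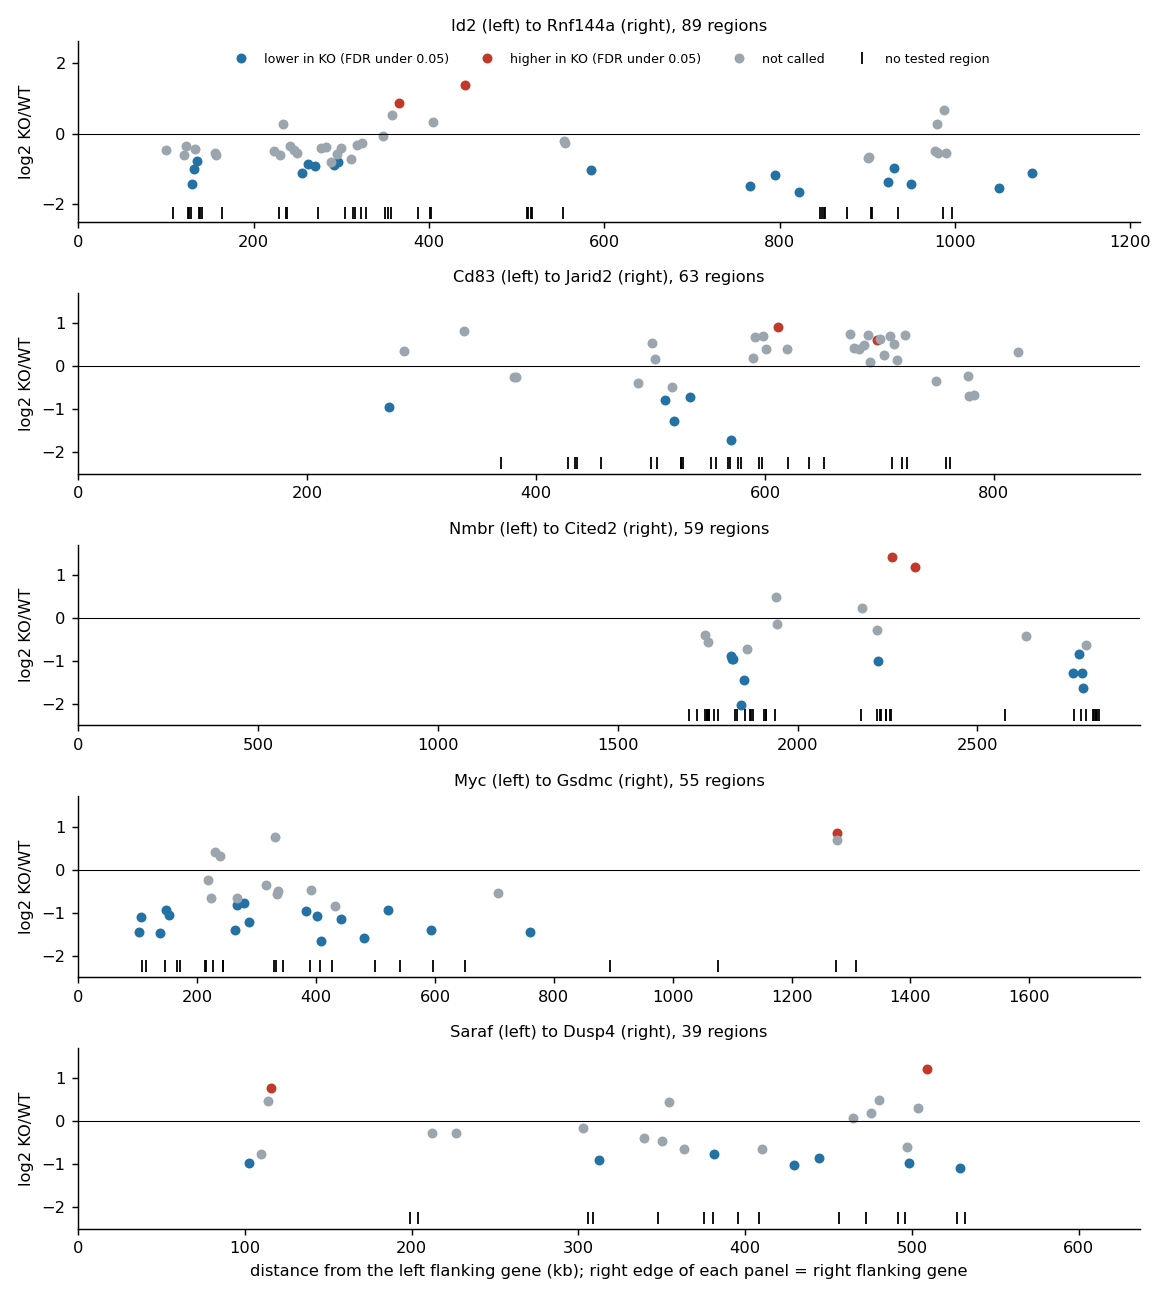
Each panel is 1 of the 5 deserts with the most regions, drawn from the left to the right flanking gene in kb; points are log2 fold changes, KO over WT, of the authors' deposited table (blue lower, red higher, grey not called), and ticks are regions without a tested region. Lower regions are spread over the Id2 panel and lie towards Myc in the Myc panel, and most regions of the Cd83 to Jarid2 panel are not called.

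Deserts beside genes known from T cells were examined as a list of 94 genes of T cell identity, activation and differentiation. Of these, 32 flanked a desert with gene desert regions, which made 35 deserts with 420 regions (25.6%). Of 264 tested, 133 (50.4%) were lower and 20 (7.58%) higher in KO per the authors' deposited table, with a median of -0.74, against 46.3% lower, 12.7% higher and a median of -0.62 over all regions of that table. The other 761 tested gene desert regions were lower in 34.7% and higher in 17.1%, with a median of -0.38 per the authors' deposited table. This difference was not tested.

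Several such deserts had lower calls only, where 46.3% of all tested regions were lower and 12.7% higher. Beside Foxo1, a transcription factor of naive and memory T cells, 10 of 13 tested regions were lower, with a median of -1.48 per the authors' deposited table. Its lead region, 220.8 kb from Foxo1, had -2.52 (FDR 4.06e-23) per the authors' deposited table, with heights of 11.3 and 12.5 in KO replicates 1 and 3, no peak in KO replicate 2, against 41.4, 47.4 and 49.8 in WT libraries. Beside Cblb 7 of 9 tested regions were lower, and beside Tnfaip3, which encodes the NF-kB inhibitor A20, 5 of 5 were lower per the authors' deposited table. Beside Ets1, a transcription factor of lymphocytes, 3 of 3 were lower, with a median of -1.72 per the authors' deposited table. Its lead region had heights of 8.65 and 10.4 in KO replicates 1 and 3, no peak in KO replicate 2, against 32.6, 32.2 and 31.0 in WT libraries.

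Beside Ccnd2, which encodes cyclin D2, 5 of 5 tested regions were lower per the authors' deposited table. Its lead region had -1.60 per the authors' deposited table, yet heights of 28.6, 27.9 and 22.4 in KO libraries overlapped with 27.1, 35.6 and 30 in WT libraries. Beside Tgfbr2, the type II TGF-beta receptor, 3 of 4 were lower, beside Pdcd1, which encodes PD-1, 2 of 2, and beside Tox, a regulator of T cell development and exhaustion, 4 of 6 per the authors' deposited table. Beside Cxcr4, a chemokine receptor, 5 of 7 were lower, and beside Bcl11b, a T lineage commitment factor, 3 of 8 per the authors' deposited table. The share beside Bcl11b was below the 46.3% lower over all tested regions. Beside Jun, a subunit of AP-1, 4 of 6 were lower per the authors' deposited table, and both regions over the lncRNA Junos were among them.

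Calls in both directions were found beside Satb1, Dusp6, Bcl6 and Gata3, among other genes of the list, while 46.3% of all tested regions were lower and 12.7% higher. Beside Satb1, a chromatin organiser of T cells, on the side towards Kcnh8, 7 of 18 tested regions were lower and 2 higher per the authors' deposited table. Its region of smallest FDR was higher, with 1.42 per the authors' deposited table and heights of 60.5, 85.6 and 49.0 in KO libraries, against 28.8, 27.0 and 25.3 in WT libraries. On its other side, towards Tbc1d5, 2 of 2 were lower per the authors' deposited table. Beside Dusp6, a phosphatase of ERK, 10 of 17 were lower and 2 higher, and beside Bcl6, the repressor that directs follicular helper T cells, 3 of 12 were lower and 3 higher per the authors' deposited table. Beside Gata3, the Th2 transcription factor, 3 of 4 were lower and 1 higher per the authors' deposited table. Beside Maf, on the side towards Wwox, 7 regions lay, and 1 of 3 tested was lower and 0 higher per the authors' deposited table. The deserts of Maf towards Dynlrb2, Ikzf2 towards Erbb4 and Ifng towards Dyrk2 had no tested region.

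Calls in the higher direction alone were found at 2 of the 35 deserts, while 12.7% of all tested regions were higher. Between Bcl2l11, which encodes the pro-apoptotic protein BIM, and Spdye4c all 3 regions lay over Morrbid, a lncRNA known to restrain Bcl2l11 in mouse myeloid and T cells. The authors' deposited table gave them 2.01, 2.31 and 1.05 (FDR 6.02e-19, 4.20e-13 and 0.000349). The height nearest Bcl2l11 was 83.2, 90.4 and 77.1 in KO libraries, against 19.8, 22.4 and 18.5 in WT libraries. At the middle region it was 43.8, 44.1 and 41.7 in KO libraries, against 11.5, 19.8 and 13.5 in WT libraries. At the region that holds the printed promoter it was 18.9, 20.5 and 24.0 in KO libraries, against 10.1 and 10.8 in WT replicates 2 and 3 and no peak in WT replicate 1. KO and WT heights did not overlap at any of the 3 regions. All KO heights were above all WT heights in 25.1% of shared narrow regions with a height in every library. Beside Nr4a3, a nuclear receptor induced by T cell receptor signals, 3 of 3 regions were higher, with 0.83 to 1.13 per the authors' deposited table, and its lead region had heights of 27.6, 30.1 and 22.9 in KO libraries, against 10.3, 11.2 and 9.76 in WT libraries.

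Deserts beside genes outside that list also had calls mostly in a single direction, where 46.3% of all tested regions were lower and 12.7% higher. Between Trib2, a pseudokinase, and Lpin1, a phosphatidate phosphatase, 14 of 15 tested regions were lower, and between Klf14 and Mkln1 12 of 15 were lower, with 0 higher per the authors' deposited table. The lncRNA Lncpint overlapped 14 regions in the second of these deserts, and 10 of its 13 tested regions were lower. Between Zpld1 and Nfkbiz, whose product is an atypical IkB protein needed for Th17 differentiation in mice, 0 were lower and 6 of 9 higher per the authors' deposited table. The lead region there, 115.8 kb from Nfkbiz, had heights of 47.0, 46.7 and 42.2 in KO libraries, against 22.6, 15.5 and 17.9 in WT libraries. Between Gdf6 and 2610301B20Rik 8 of 11 were higher and 1 lower per the authors' deposited table.

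Gene desert regions lay over lncRNA spans in 479 cases (29.2%), through 207 lncRNA genes, against 24.2% of intergenic regions near genes. Of 319 tested, 40.8% were lower and 12.2% higher in KO, against 37.8% and 15.7% of the 706 tested regions over no lncRNA span per the authors' deposited table, and against 46.3% and 12.7% of all its regions. Within 2 kb of a lncRNA end 35.5% of 155 tested regions were lower and 17.4% higher per the authors' deposited table. In intergenic regions near genes the corresponding shares at lncRNA ends were 50.4% and 10.4% per the authors' deposited table. Regions over a lncRNA had a peak in all 6 libraries in 48.2% of cases, against 40.8% of those over none. These differences were not tested.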

How the data were processed

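The labels list 12 samples, of which the 6 H3K9/14ac ChIP libraries were used, 3 KO and 3 WT. The submitters' processing notes name the builds GRCm38 and mm10 and the tools MACS2 2.2.6, Bowtie2 2.3.5.1, cutadapt 2.8, deepTools 3.3.2 and bcl2fastq 2.20.0.422. Peaks were called per library. The deposited peak lists hold, per peak, a score, fold enrichment (a linear ratio over background) and -log10 p-value and -log10 q-value columns in the MACS2 layout, and the lowest -log10 q is 3. Paired-end lists were used, and single-read lists served as an alternative. The authors' deposited table gives, for regions built of 150 bp windows, a best-window log2 fold change with p-value and FDR. Not given in the sources used here are its program, its scaling and the use of input as control. It has no value per library, so nothing was refitted.

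Peaks were joined into union regions, and distances were taken to 21896 protein-coding gene spans of the RefSeq GRCm38.p6 annotation. Tested regions were linked by largest overlap. Spans of uncalled tested regions were rebuilt from single-read peaks, which returned 98.0% of listed spans exactly. Height and background were solved from each peak's fold and Poisson p, within 0.01 of its -log10 p, for 99.5% of peaks in WT replicate 1 and 100% in the others, and the solver was tested on simulated data. Mean coverage was read as the smallest background that 50 or more peaks had in common. The log2 fold change of the table and the log2 ratio of heights correlated at 0.99 over 709 regions, which share libraries. These were chosen for matching position: each library had a single summit, within 150 bp of the middle of the table's best window. Elsewhere the correlation was not measured, and single regions such as that of Dubr differed in sign. The shift to equal coverage was taken from the same 709 regions. Counting error is not included. Two-sided exact permutation tests compared libraries of both genotypes. Python 3.11.15, numpy 2.4.6, pandas 2.3.3 and scipy 1.17.1 were used.

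The regions, the 94-gene list and the markers were chosen with earlier results of these data known. A list of B cell markers is not reported here. Regions named are the 5 lowest and 5 highest fold changes, the 5 highest mean folds, the 3 farthest, those at the limits, the 5 deserts with the most regions and deserts beside list genes. The region of smallest FDR stands for a desert, and deserts and lncRNAs outside this rule were named after their values were seen. No genome sequence was used, so motifs planned around summits were searched in lncRNA promoter windows only.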

Additional observations from a re-analysis of the deposited data

How the results depend on the processing

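Counts of gene desert regions followed the rule. With a distance of at least 50 kb there were 2836 regions, 727 lower and 270 higher in KO with a median log2 fold change of -0.54, and at 200 kb 705, 160 and 46. Measured from any annotated gene there were 163 regions. With a peak in all 6 libraries there were 706, 254 and 94, and with peaks covering 50% of a region 221 were lower and 89 higher, with a median of -0.41. The median was -0.57 with single-read peaks and -0.54 without a width limit. Beyond a log2 size of 1, 89 were higher, and at coverage scaling 153 were lower, with a median of -0.21. Leaving out each library in turn gave 1520 to 1623 regions, a share difference of -0.534 to -0.417 percentage points, a height difference of 0.052 to 0.114 and a difference in the gap of 0.057 to 0.103. Same-numbered libraries correlated at 0.04 to 0.05 in their deviations from genotype means. Each library's median was removed first, so this cannot decide whether numbers pair them. The replicate block gave -0.47, 0.08 and 0.07 for share, height and gap, each with an exact sign-flip p of 0.25, the smallest possible. The share difference was -0.88 at 50 kb and -0.30 at 200 kb. All settings run kept the signs of the share, height and gap differences. Depth was lower in KO libraries, and its part was not tested.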

Other observations

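Antigen receptor loci hold gene segments that the annotation does not count as protein-coding genes, and 37 gene desert regions lay within 100 kb of such segments. The T cell receptor alpha locus (Tra, chromosome 14) had 22, the immunoglobulin heavy chain locus (Igh, chromosome 12) 8 and the T cell receptor beta locus (Trb, chromosome 6) 7, and 14 of the 37 overlapped a segment. Of 9 tested at Tra, 4 were lower in KO and 0 higher in the authors' deposited table, with a median log2 fold change of -0.84, against 46.3% lower, 12.7% higher and a median of -0.62 over all its regions. At Igh 2 of 5 were lower and at Trb 1 of 4, with 0 higher at either in the authors' deposited table. Reads at these loci can be shared between similar segments, and how the authors handled such reads is not stated in the labels.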
